A study of Saccharomyces cerevisiae with 2 samples.

Results

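The genes described here are 46 budding yeast genes of late secretory traffic, chosen by name as subunits of the exocyst, TRAPP and COG tethering complexes and as the Rab, Arl and Arf regulators that work with them. They are 46 of 5094 genes probed in a genetic interaction mapping (GIM) screen, in which a pool of barcoded mutants is crossed with a query deletion and the abundance of each double mutant is read from its barcode. The query pool carried a deletion that the titles give as *PIH1* and the descriptions and source names as *RSA1*; the reference was a GIM pool whose query is not given in the sources used here. Both pools were mixes of haploid strains derived from BY4742/BY4741 that descend from a DAmP collection, in which the mRNA of each gene is lowered by a disturbed 3′ untranslated region, and per the labels they grew for 18 generations under G418 and nourseothricin. Barcodes of the query pool were labelled with Cy3, those of the reference pool with Cy5, and each of 2 independent screens was read on 1 array. Probes carry gene names only, so a value cannot be assigned to a DAmP allele rather than another allele of the same gene.

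All values below are log2 ratios of the query pool over the reference pool, with the median of each array set to 0, so that a negative ratio means less barcode in the query pool. The log base and the direction are read from the data and are likely rather than stated. The reading of the direction takes *PIH1* as the query, since double mutants of genes linked to the query are rare. The 34 genes within 50 kb of *PIH1* had a median of -1.16 on array 1 and -0.83 on array 2. The 42 genes within 50 kb of *RSA1* had a median of 0.04 for the mean of both arrays. No brightness or depth was analysed, and the number of arrays limits the precision. Probe values spread more on array 2, with a median absolute deviation, scaled as for a normal distribution, of 0.63 against 0.35 on array 1. The same log2 value or limit is thus not equally extreme on both arrays. The labels call the screens independent but name no separate cultures, so the spread between arrays may be partly technical.

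Of the 46 genes, 45 had probes, 40 had a value on array 1 and 37 had a value on both arrays. Over all genes probed, 4196 of 5094 (82.4%) had both. *TRS31*, *COG1*, *COG4*, *YPT31* and *SEC7* had probes but no listed value, and no probe was matched to *GEA2*. *RIC1*, *ARL3* and *DRS2* had a value on array 1 only. *SSO1* lies within 100 kb of *RSA1* and, like the other neighbours of both possible query loci, was kept out of the test, which left 36 listed genes among the 4048 tested. The platform lists *TRS65* as KRE11 and *TRS85* as GSG1.

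Secretory vesicles leave the trans-Golgi network and dock at the bud through the exocyst, an octamer recruited by the Rab GTPase Sec4, before SNARE proteins fuse them with the plasma membrane. Earlier in the route, TRAPP complexes switch on the Rabs Ypt1, Ypt31 and Ypt32, and the COG complex tethers vesicles that carry resident enzymes back through the Golgi. Vesicles that return from endosomes are received at the trans-Golgi by Ypt6, which is activated by the Ric1 and Rgp1 exchange factor, and by a cascade in which Sys1 recruits Arl3, Arl3 recruits Arl1 and Arl1 recruits the golgin Imh1.

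The lowest averages, and the lowest value on a single array, belonged to genes of the Ypt6 step. On array 1, *RIC1* stood at -3.72, *YPT6* at -3.18 and *RGP1* at -2.81, the only 3 of the 40 listed genes with a value there that were at or below -2. On array 2, *RGP1* stood at -1.34 and *YPT6* at -0.44, and *RIC1* had no value. The exocyst and the large TRAPP subunit genes lay near 0 in both screens, the Arl genes were high on 1 array each, and *YPT32* and *SEC4* were low on array 2 only. No listed gene passed the test.

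By limma's moderated test against 0 with Benjamini-Hochberg adjustment over 4048 genes, 0 of 36 listed genes were called at 0.05, and 0 (0%) of all genes tested were. The smallest adjusted p among the listed genes was 0.235 (*BET5*), and 3 listed genes, *BET5*, *RGP1* and *TRS65*, had an unadjusted p under 0.05, against 678 (16.7%) of all genes tested. For a single gene, an exact two-sided test by flipping signs reaches p = 0.5 at best with 2 arrays. When both arrays were first brought to the same median absolute deviation (called scaling below), 456 genes (11.3%) passed by limma and 0 of the listed ones did (smallest adjusted p = 0.0875). After quantile normalization 435 genes (10.7%) and 0 listed genes passed (smallest adjusted p = 0.0711).

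By their medians and their share near 0, the 36 listed genes tested lay close to all genes tested. On array 1 they had a median of -0.03, against 0.01 for all genes tested, and on array 2 a median of -0.10, against 0.00. Within 0.5 of 0 on both arrays were 19 of 36 (52.8%), against 53.9% of all genes tested. Only *RGP1* was at or below -1 on both arrays, against 2.03% of all genes tested, and 0 were at or above 1 on both, against 6.4%. Both arrays were negative for 12 of the 36 and positive for 7, against 33.9% and 34.7% of all genes tested. Their signs were opposite for 17 of the 36, against 31.4%. The listed genes were thus less often positive on both arrays and more often opposite in sign, which was not tested. Between arrays the listed genes had a median SD of 0.27, and all genes tested 0.25.

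**Figure D1:**
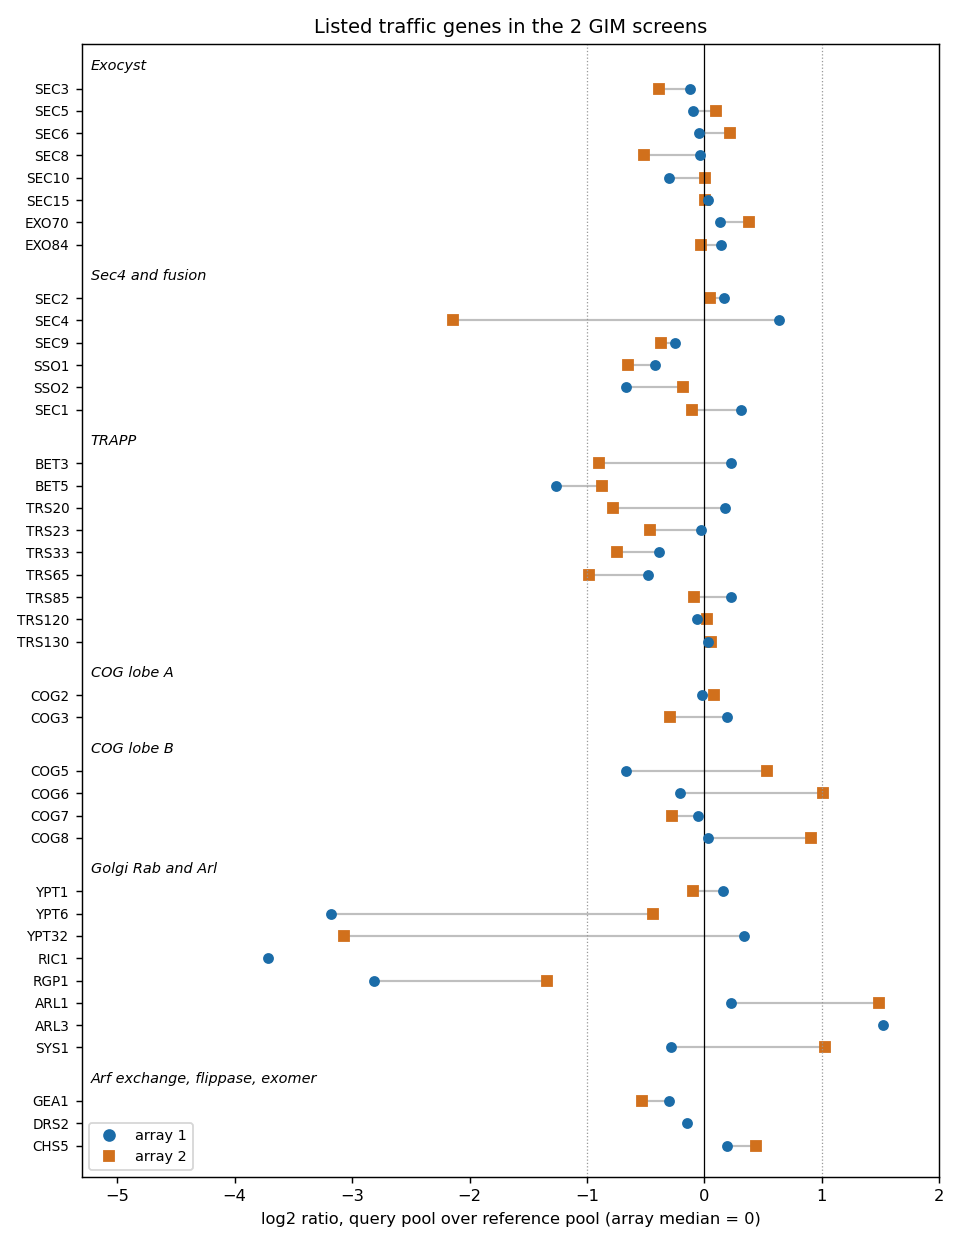
Log2 ratio of the query over the reference pool (horizontal axis) for the 40 listed genes with a value, by role; circles are array 1, squares array 2, and a grey line joins both values of a gene. Within 0.5 of 0 on both arrays are 19 genes, *YPT6*, *RIC1* and *RGP1* lie farthest left on array 1, and *YPT32* and *SEC4* lie far left on array 2 only.

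All 8 exocyst genes were measured on both arrays, and 7 of them lay within 0.5 of 0 on both. On array 1 they ran from -0.30 to 0.14 with a median of -0.04, and on array 2 from -0.51 to 0.38 with a median of 0.00. *SEC3* and *EXO70* encode the subunits that bind the plasma membrane. *SEC3* was at -0.12 and -0.39 on arrays 1 and 2, and *EXO70* at 0.13 and 0.38. *SEC15*, whose product binds Sec4 on the vesicle, was at 0.03 on array 1 and 0.00 on array 2. The core subunit genes *SEC5* (-0.10 and 0.10), *SEC6* (-0.04 and 0.22), *SEC10* (-0.30 and 0.01) and *EXO84* (0.14 and -0.03) had opposite signs in the screens. *SEC8*, at -0.04 and -0.51, was the member beyond 0.5. Some array 2 values average probes that disagree. The probes of *SEC6* read 0.74 and -0.30 there, those of *EXO70* 0.86 and -0.11, and those of *SEC5* ran from -0.17 to 0.71. *SEC3* had 1 probe value on each array.

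The partners of the exocyst at the plasma membrane differed from one another. *SEC4*, the Rab of secretory vesicles, was at 0.64 on array 1 and -2.14 on array 2, each from 1 of its 2 probes, an average of -0.75 ± 1.96 (SD, n = 2). Its exchange factor gene *SEC2* was at 0.17 and 0.05, averaging 0.11 ± 0.08. The low value of *SEC4* was thus present in 1 screen and absent from *SEC2* in both. The syntaxin genes *SSO1* (-0.42 and -0.65) and *SSO2* (-0.67 and -0.19), and *SEC9* (-0.25 and -0.37), which encodes their SNAP-25 type partner, were negative on both arrays. *SSO1* minus *SSO2* was 0.25 on array 1 and -0.46 on array 2, so these paralogs had no fixed order. *SEC1*, of the SNARE-binding Sec1/Munc18 family, was at 0.31 and -0.11, and its 4 probes on array 1 spanned 1.48 log2 units, the widest span of any listed gene on that array.

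The TRAPP genes leaned low on array 2. On array 2 the 9 genes measured had a median of -0.74 and 2 of them were positive, against 2014 of all 4048 genes tested. On array 1 the median was -0.02. *BET5*, of the shared core that carries the exchange activity for Ypt1, was at -1.26 and -0.87 (-1.07 ± 0.28, SD, n = 2), the lowest TRAPP mean, from 1 probe on each array. On array 1 it was 1 of 4 listed genes at or below -1, with the 3 Ypt6 genes, against 3.63% of all genes with a value there. *TRS33*, another core gene, was at -0.38 and -0.74, and *TRS65*, of the TRAPPII form, at -0.48 and -0.98. After scaling, *TRS33* was at -0.52 and -0.55 and *TRS65* at -0.65 and -0.73, so these genes were about as low on array 1. *BET5*, *TRS33* and *TRS65* were negative beyond their SD, as were other listed genes, among them *RGP1*, *SEC9*, *SSO1* and *GEA1*. The limma adjusted p was 0.235 for *BET5*, 0.338 for *TRS33* and 0.29 for *TRS65*.

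The other core genes were lower on array 2 than on array 1, before and after scaling. *BET3* stood at 0.23 and -0.89, *TRS20* at 0.17 and -0.78, and *TRS23* at -0.02 and -0.47. All 5 measured genes of the core were thus negative on array 2, where 2014 of all 4048 genes tested were positive. On array 1, 2 of the 5 were positive. Probes of the core genes disagreed on array 2. Those of *TRS20* ran from -1.47 to -0.33 and those of *TRS23* from -0.93 to -0.28, while *TRS33* read -1.19 and -0.29. *BET3*, like *BET5*, had 1 probe value on each array. The genes of the large subunits that define the TRAPP forms lay closer to 0. *TRS120* (-0.06 and 0.02) and *TRS130* (0.03 and 0.06) of TRAPPII stayed within 0.1 of 0, and *TRS85*, of the autophagy-linked TRAPPIII, was at 0.23 and -0.09. Whether the core differs from the large subunits was not tested.

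**Figure D2:**
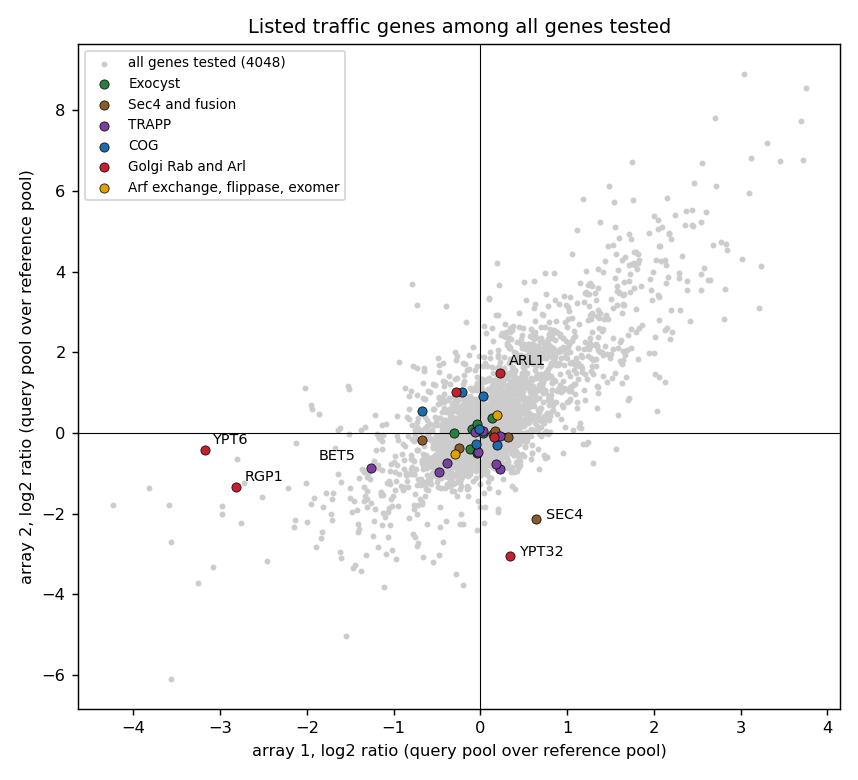
Log2 ratio on array 1 (horizontal axis) against array 2 (vertical axis) for the 4048 genes tested (grey) and the 36 listed genes among them (coloured by role). Exocyst and COG genes lie in the central cloud; *YPT6* and *RGP1* lie left of it, and *SEC4* and *YPT32* below it on the right side of 0.

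COG genes were measured for both lobes of the complex. In lobe A, whose genes matter most for growth, *COG2* (-0.02 and 0.09) and *COG3* (0.20 and -0.29) lay within 0.5 of 0 on both arrays. In lobe B, *COG6* was at -0.21 on array 1 and 1.01 on array 2, *COG8* at 0.03 and 0.90, and *COG5* at -0.67 and 0.54. *COG7*, the remaining lobe B gene, was at -0.06 and -0.28. Of the lobe B genes, 3 were therefore higher on array 2 than on array 1, by 1.22 (*COG6*), 0.87 (*COG8*) and 1.21 (*COG5*). Over the 6 COG genes the array 1 median was -0.04 and the array 2 median 0.31, and 0 passed by limma (smallest adjusted p = 0.539, *COG8*; 0 had an unadjusted p under 0.05). On array 2, 17.3% of all genes with a value were at or above 1, against 7.3% on array 1.

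The measured Golgi Rab genes averaged between -1.81 and 0.03. *YPT1*, the essential Rab of early Golgi transport, was at 0.16 on array 1 and -0.10 on array 2, averaging 0.03 ± 0.18 (SD, n = 2). Its 2 probes disagreed on array 2, at -0.94 and 0.74, the widest span of any listed gene on that array. *YPT32*, a Rab of vesicle exit from the trans-Golgi, was at 0.34 on array 1 and -3.07 on array 2 (-1.36 ± 2.41), each from 1 probe. The difference between its arrays, -3.41, was the largest of the 37 listed genes with both values. Like *SEC4*, it was low in 1 screen and positive in the other. These were the only 2 listed genes at or below -2 on array 2, where 1.47% of genes were, and with *RGP1* the only 3 at or below -1, where 5.35% were. Of the 37 listed genes with both values, 9 differed by over 1 between the arrays, against 16.1% of all genes tested.

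The 3 genes of the Ypt6 step were low together on array 1. *RIC1* ranked 6 from the lowest of 4217 genes with a value on array 1 outside the linked regions, *YPT6* ranked 17 and *RGP1* ranked 21. There, 38 genes (0.901%) were at or below -2. In fold terms *RIC1* was 13.2-fold, *YPT6* 9.05-fold and *RGP1* 7.03-fold lower in the query pool than in the reference pool on that array. The value of *RGP1* rests on 4 probes between -2.94 and -2.76, and those of *RIC1* and *YPT6* on 1 probe each.

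On array 2 *RGP1* and *YPT6* were below 0 to a smaller extent, and *RIC1* had no value. *RGP1* stood at -1.34, or 2.53-fold lower, from 1 of its 4 probes, and ranked 131 from the lowest of 4072 genes. *YPT6* stood at -0.44, or 1.35-fold lower, from 1 of its 2 probes, and ranked 789. That value lies within the median absolute deviation of array 2, 0.63. The averages were -2.07 ± 1.04 for *RGP1* and -1.81 ± 1.94 for *YPT6* (SD, n = 2), with limma adjusted p = 0.244 and 0.39. After scaling, the adjusted p was 0.122 for *RGP1* and 0.255 for *YPT6*, and after quantile normalization 0.0711 and 0.252. Both genes were negative in both screens, as were 33.9% of all genes tested. *YPT6* differed between the screens by more than its mean.

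*VPS63*, a dubious reading frame that overlaps *YPT6*, had probes of its own and gave a further reading of that locus. It was looked up after the values of *YPT6* were seen. Its 2 probes read -3.85 and -2.57 on array 1, a mean of -3.21 that ranked 16, next to *YPT6* at 17. It had no value on array 2. Genes beside the Ypt6 loci were not low: of the 12 genes nearest to *YPT6*, *RIC1* and *RGP1* in the gene table, the 8 with values lay between -0.33 and 0.30 on array 1, and between -0.28 and 0.94 on array 2.

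Missing values on array 2 were more frequent among low genes. Of the 38 genes at or below -2 on array 1, 15 (39.5%) had no value on array 2, against 169 (4.01%) of all 4217 genes with a value on array 1. *RIC1* and *VPS63* were among these 15, and 3 of the 4 *RGP1* probes also lacked a value there. Genes with the lowest ratios on array 1 thus left the test more often than others, and the part of this in the results above was not tested.

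**Figure D3:**
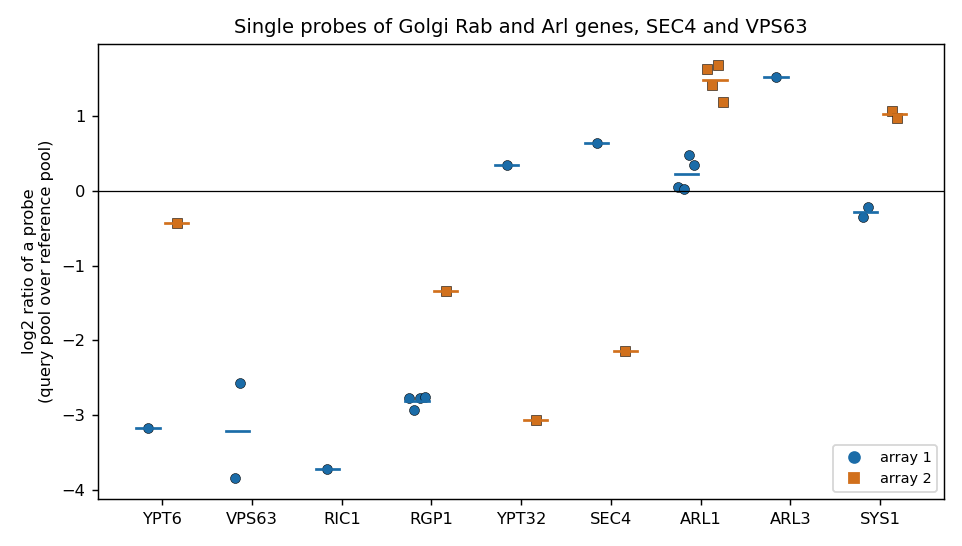
Log2 ratio of each single probe (vertical axis) on array 1 (circles) and array 2 (squares), with a bar at the mean per gene and array. The 4 *RGP1* probes lie together near -2.81 on array 1, *VPS63* lies at the level of *YPT6*, and *ARL1* is higher on array 2 in all 4 probes.

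Each of the 3 listed Arl cascade genes was at or above 1 on 1 array. *ARL1* was at 0.23 on array 1 and 1.48 on array 2 (0.85 ± 0.89, SD, n = 2), from 4 probes on each array that ran from 0.03 to 0.48 and from 1.19 to 1.69. *SYS1*, the membrane receptor that recruits Arl3, was at -0.28 and 1.03, from 2 probes each. *ARL3* was at 1.52 on array 1, from 1 probe, and had no value on array 2. It was the only listed gene at or above 1 on array 1, where 7.3% of genes were. The high value of *ARL1* and *SYS1* was thus on array 2, where 17.3% of genes were at or above 1, and agreed between probes. On array 1 *SYS1* was negative. By limma *ARL1* had adjusted p = 0.412 and *SYS1* 0.703.

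Among the remaining genes, *GEA1*, an Arf exchange factor gene of the Golgi, was at -0.30 and -0.53 (-0.42 ± 0.17, SD, n = 2). *CHS5*, the scaffold of exomer, which carries chitin synthase to the cell surface, was at 0.19 and 0.44. *DRS2*, a phospholipid flippase gene of the trans-Golgi, was at -0.15 on array 1 alone. None of these reached 1 in either direction.

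The groups can be set side by side only as descriptions, since genes are not replicates and 2 arrays cannot test a difference between groups of genes. The median of the gene averages was 0.01 for the exocyst (8 genes), -0.30 for TRAPP (9 genes), -0.01 for COG (6 genes) and -0.67 for the Rab and Arl genes (6 genes), against -0.01 for all genes tested. The Rab and Arl median stands for genes at opposite ends, from -2.07 for *RGP1* to 0.85 for *ARL1*. By array it was -0.06 and -0.27. Exocyst genes had a median SD of 0.18 between arrays and Rab and Arl genes 0.98, against 0.25 for all genes tested.

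Several of the values farthest from 0 rested on 1 probe. On array 1, 29 listed genes had values from 2 or more probes and 11 from 1 probe, and 9 genes had 1 probe value on each array. *BET5*, *SEC4*, *YPT6* and *YPT32* were among those 9. Of the 26 listed genes tested with 2 or more probe values on each array, 0 were at or below -1 on either array. Among all 3084 genes tested with as many probe values, 66 were on array 1 and 110 on array 2. This filter left out *RGP1*, which was low in 4 probes on array 1 but had 1 probe value on array 2. The filter also needs values on array 2, which genes low on array 1 lacked more often. At or above 1 on array 2 were 3 of the 26 (*ARL1*, *SYS1* and *COG6*), against 512 of the 3084. Within 0.5 of 0 on both arrays were 17 of the 26 (65.4%), against 57.5% of the 3084. Where 2 or more probes of a listed gene had values, their median span was 0.18 on array 1 and 0.46 on array 2.

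Other genes of the same steps gave a wider view of the pathway. Of 69 such genes, 51 had both values and 50 were tested. By limma 0 of these 50 passed, and 9 had an unadjusted p under 0.05, against 16.7% of all genes tested. The 51 genes had medians of 0.03 and 0.01 on arrays 1 and 2. *SNC2*, a vesicle SNARE gene of exocytosis, was the only one at or above 1 on both arrays (1.23 and 1.33), against 6.4% of all genes tested. *APS1*, the small subunit gene of the AP-1 clathrin adaptor, was the only one at or below -1 on both (-1.18 and -2.84). Of all genes tested 2.03% were. After scaling, 4 of the 50 passed by limma, against 11.3% of all genes tested. These were *SNC2* (adjusted p = 0.0411), *APS1* (0.0186), *BCH2* (0.0353) and *CHS3* (0.0376). After quantile normalization *SNC2* (0.0578) and *APS1* (0.0581) missed the threshold, as did *CHS3* (0.0608), while *BCH2* (0.0438) and *GOS1* (0.0485) passed. Of all genes tested 10.7% passed that way.

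The complexes below were singled out after their values were seen. AP-1 carries cargo between the trans-Golgi and endosomes, and its other measured genes were low as well: *APL4* was at -0.47 and -2.35, and *APM1* at -1.55 on array 1 only. *IMH1*, the golgin gene downstream of Arl1, was at -0.77 and -1.01, opposite in sign to *ARL1* on both arrays. Of the 4 genes of GARP, the tether that binds Ypt6, only *VPS52* had a value, -1.31 on array 1. Of the SNARE genes of the Golgi steps, *GOS1* (0.58 and 1.36) and *YKT6* (0.33 and 1.72) were positive on both arrays. So were *VTI1* (0.34 and 0.87), *TLG1* (0.18 and 0.25) and *TLG2* (0.24 and 0.54). *SED5* (-0.08 and -0.57) was negative, and *BET1* (0.24 and -0.67) and *SEC22* (-0.03 and 0.13) had opposite signs. *CHS3*, the chitin synthase gene that exomer carries, was at -0.69 and -1.65, and its exomer subunit genes went both ways, with *BCH2* at 0.85 and 1.30 and *CHS6* at -0.18 and -0.98.

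Coat and vacuolar sorting genes served for comparison. Of 16 COPI and COPII coat genes 10 had both values, with medians of 0.10 and -0.03 on arrays 1 and 2 and 0 at or below -1 on both. Of 36 vacuolar sorting genes 21 had both values, with medians of -0.52 and 0.05 on these arrays. At or below -1 on both were 2 of the 21. These were *VPS21*, the endosomal Rab5 gene, at -1.38 and -3.43, and the retromer gene *VPS29* at -1.45 and -1.14. *VPS29* lies within 100 kb of *PIH1*, where ratios were low around the locus, so it was kept out of the test. Linkage and an effect of the gene cannot be told apart there. *HSE1* (-1.05 and 0.29), also near *PIH1*, was kept out too, and both genes enter the medians of the 21. Of the retromer genes outside that region, *VPS5* was at -1.16 and -0.13, *VPS17* at -1.33 and 0.16, *PEP8* at -0.80 and -0.64 and *VPS35* at -0.42 and -0.35. Retromer retrieves cargo from endosomes to the Golgi. *VPS9*, the exchange factor gene for Vps21, was at -1.17 on array 1 and had no value on array 2. By limma as centred, 0 of the 10 coat genes and 0 of the 19 vacuolar sorting genes tested passed (smallest adjusted p = 0.252 in each list). An unadjusted p under 0.05 was found for 2 coat and 4 vacuolar sorting genes, against 16.7% of all genes tested. After scaling *VPS21* (adjusted p = 0.0156) and the COPI gene *SEC27* (0.0322) passed, against 11.3% of all genes tested. After quantile normalization *SEC27* (0.0316) and *COP1* (0.0434), also of COPI, passed while *VPS21* (0.0624) did not, against 10.7% of all genes tested.

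**Figure D4:**
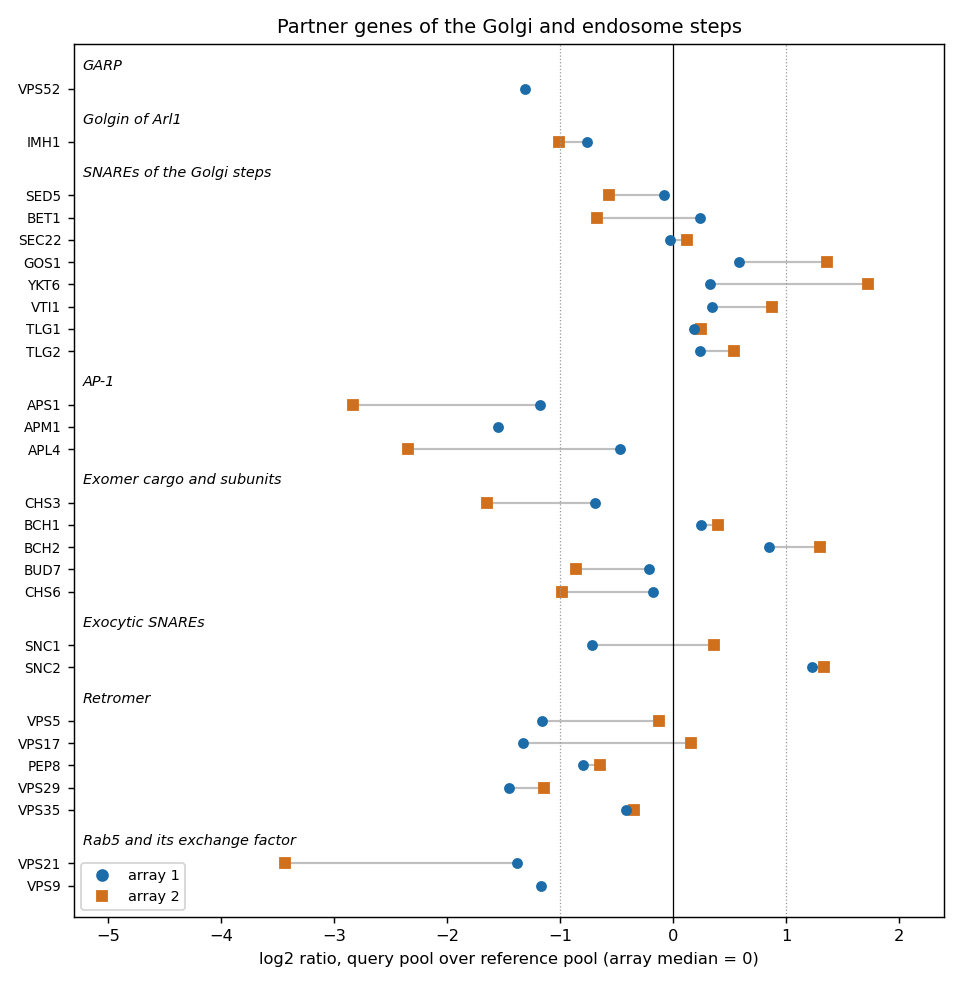
Log2 ratio of the query over the reference pool (horizontal axis) for measured partner genes at the Golgi and endosomes, with circles for array 1 and squares for array 2. AP-1 genes, *IMH1*, *VPS21* and *SED5* lie left of 0, and *SNC2*, *GOS1*, *YKT6*, *VTI1*, *TLG1* and *TLG2* right of it. *VPS29* lies in the region linked to *PIH1*.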

How the data were processed

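Each of 2 arrays compared barcodes of the query pool (Cy3) with those of a reference pool (Cy5), per the labels' protocols. The deposited value table gives a log ratio for each probe, read here as log2 because values reach 9.40; its base, centring, direction, normalization and dim-spot filter were not given in the sources used here. Its columns had medians of -0.06 (array 1) and -0.27 (array 2).

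Probes were named from the platform annotation (1 gene symbol for 13084 of 15744 probes, none for 2660, several for 0), updated through the R64 gene table, where 6 probes matched several genes and were left out. Arrays were centred on their medians and probes averaged per gene. Genes with both values and over 100 kb from *PIH1* and *RSA1* were fitted with limma 3.58.1 (R 4.3.3, intercept, eBayes), Benjamini-Hochberg at 0.05; the script was tested on simulated data. Python 3.11.15 served for the rest. The test uses the ratio of both pools on each array, so the spread of the reference pool is not separated from that of the query pool. Members and lists were chosen with earlier results of these data known. Every listed gene with a value is named; other genes of the pathway were named where at or beyond 1 in the same direction on both arrays, or as stated.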

Additional observations from a re-analysis of the deposited data

How the results depend on the processing

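The count of listed genes called stayed at 0 in all 7 alternatives run, while that of all genes moved to 456 when the arrays had the same median absolute deviation and to 435 after quantile normalization, and stayed at 0 in the other 5. Listed genes at or below -1 on both arrays, 1 as centred, were 0 after that scaling and 2 without centring. They were 0 with only genes of 2 or more probe values on each array (chosen after seeing the data), a filter that leaves out *RGP1*. By single array they were 3 and 3. Those at or above 1 were 0 to 3 by single array. These single-array counts cover only listed genes with both values, so they leave out *RIC1* and *ARL3*, which had a value on array 1 only. The exocyst median, 0.01, was -0.16 without centring and -0.035 with the median over probes, and -0.041 to 0.0039 by single array; the COG median was -0.037 to 0.31. The TRAPP median, -0.30, was -0.18 after scaling, -0.17 with the median over probes, -0.47 without centring and -0.74 to -0.025 by single array. The Rab and Arl median, -0.67, was -0.42 after scaling, -0.83 without centring, -1.36 without genes whose probes disagree by over 1, and -0.27 to -0.062 by single array. The median of all listed genes with both values, -0.07, was -0.14 after either scaling, -0.23 without centring and -0.15 without disagreeing probes. The shifts without centring follow from the array medians. No paired analysis was possible because the arrays form 1 group. Without 1 array no residual degrees of freedom remain, so calls were not run that way. Signal over background was not analysed.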
